A study of Drosophila melanogaster with 3 samples.

Results

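The microRNA precursor genes of Drosophila melanogaster were described here by their position relative to binding sites of rgr, a protein assayed as a transcription factor. Members were all genes whose symbol begins with mir- in the Ensembl annotation of the dm6 genome. The rule found 262 genes, and each has an annotated precursor (hairpin) transcript. Of these, 260 lie on the main chromosome arms, among 17796 annotated genes there, and 2, mir-10404-1 and mir-10404-2, lie on an unplaced ribosomal DNA sequence and could not be compared. The annotation lists let-7 as mir-let7, bantam as mir-ban and mir-263a as mir-bft, so these are members too.

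MicroRNAs are short RNAs that guide an Argonaute protein to messenger RNAs and lower their translation or stability. They are cut from hairpins within longer primary transcripts, which start at promoters of their own or at the promoter of a host gene whose intron or exon holds the hairpin. The bases from position 2 to position 8 of the mature RNA, the seed, set most of its pairing with targets, so microRNAs that share a seed form a family. In the fly larva, known microRNA functions include tissue growth, survival of cells, fat storage and the timing of metamorphosis.

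Chromatin was immunoprecipitated with an anti-GFP antibody from a transgenic line that stably expresses rgr with GFP at its C-terminal end. The material was whole wandering larvae of the third instar, males and females together, of unstated age, with chromatin fragmented by sonication. The 3 biological replicates form 1 group, so no test between conditions was possible, and all shares below are descriptions. The labels describe an insertion that targets rgr and give no position for it.

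The authors deposited a list of 30000 ranked entries for each replicate and for the pooled reads, and a thresholded list, called optimal, of 8551 peaks. Each entry has a signal value from the authors, which served here only for ranks and descriptions inside 1 list, with rank 1 the strongest. The optimal list was derived from these same replicates, so the presence of its peaks in each replicate is partly fixed. The lists hold no read counts, so depth is unknown, and signal from few cells of the larva and weak signal from many cannot be told apart. Expression of the microRNAs, open chromatin and binding of GFP alone were not measured here.

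The mature sequences below belong to the loci that lead the results, read 5′ to 3′ from the dm6 genome at the positions of the RefSeq products, with the seed in capitals. Each is the product of the 3′ side of the hairpin, except for mir-305 and mir-let7, whose 5′ product is shown. All 260 members on the arms had a RefSeq product. The first pair shares 1 seed and 1 primary transcript beside the strongest summit near any member, and the second pair shares another seed and 1 host gene.
mir-279, chr3R:29215651-29215672, plus strand: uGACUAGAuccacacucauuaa
mir-996, chr3R:29217244-29217265, plus strand: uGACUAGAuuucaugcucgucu
mir-92a, chr3R:25646560-25646581, plus strand: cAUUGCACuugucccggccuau
mir-92b, chr3R:25651457-25651478, plus strand: aAUUGCACuagucccggccugc
The next sequences come from the family that represses cell death genes, whose members lie in several clusters and single loci with and without summits.
mir-2a-1, chr2L:19569902-19569924, minus strand: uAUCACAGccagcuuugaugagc
mir-2b-2, chr2L:19570189-19570211, minus strand: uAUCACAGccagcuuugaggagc
mir-2c, chr3R:15417761-15417783, minus strand: uAUCACAGccagcuuugaugggc
mir-13a, chr3R:15417548-15417569, minus strand: uAUCACAGccauuuugaugagu
mir-11, chr3R:21622504-21622524, minus strand: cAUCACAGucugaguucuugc
mir-13b-2, chrX:9091275-9091296, plus strand: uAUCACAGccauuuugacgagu
The last set holds members of other leading loci and the timing microRNA let-7.
mir-275, chr2L:7425853-7425875, plus strand: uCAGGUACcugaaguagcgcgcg
mir-305, chr2L:7425979-7426001, plus strand: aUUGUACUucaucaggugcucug
mir-ban, chr3L:642259-642281, plus strand: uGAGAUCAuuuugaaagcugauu
mir-375, chr2L:857596-857617, plus strand: uUUGUUCGuuuggcuuaaguua
mir-let7, chr2L:18472044-18472064, plus strand: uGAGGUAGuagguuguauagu

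The DNA around the leading summits is shown as windows of 101 bp centred on the summit, on dm6 and read on the strand of the named precursor. The window shown for mir-279, upstream of it, has the highest signal near any member. The windows of mir-275 and mir-ban lie upstream of their precursors, and that of mir-4962 overlaps the precursor itself. Capitals mark matches to words searched on both strands and described further on, here GAGAGAG (as its reverse complement CTCTCTC) and CACGTG.
mir-279, chr3R:29214389-29214489, plus strand: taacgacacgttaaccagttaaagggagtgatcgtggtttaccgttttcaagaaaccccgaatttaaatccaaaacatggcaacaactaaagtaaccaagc
mir-275, chr2L:7425310-7425410, plus strand: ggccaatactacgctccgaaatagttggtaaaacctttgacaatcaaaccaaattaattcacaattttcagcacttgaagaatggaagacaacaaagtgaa
mir-ban, chr3L:640716-640816, plus strand: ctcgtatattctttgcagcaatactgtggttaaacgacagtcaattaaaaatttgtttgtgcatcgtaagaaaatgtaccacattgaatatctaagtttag
mir-4962, chrX:3777370-3777470, plus strand: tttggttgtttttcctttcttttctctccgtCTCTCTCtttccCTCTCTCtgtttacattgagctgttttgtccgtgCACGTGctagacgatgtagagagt

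An optimal summit lay within 2 kb of 60 of the 260 precursors, or 23.1% (exact 95% interval 18.1 to 28.7%, which covers counting error only). Over all annotated genes the share was 42.9%. Those genes are longer, with a median of 1695.5 bp against 92 bp for precursors. The part of length in this difference was not tested. Of all bases on the arms, 18.0% lay within 2 kb of an optimal summit. The members form 198 loci when genes within 10 kb of each other are joined, and 47 of these loci (23.7%) had a summit. Lists and families below are small and were chosen with earlier results known, so their counts are given beside this share without a test.

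The replicates gave similar shares when each list was cut to its 8551 strongest entries. A summit lay within 2 kb of 25.0% of the precursors in replicate 1, 24.6% in replicate 2 and 26.5% in replicate 3, a mean of 25.4% ± 1.02 (SD, n = 3). For tRNA genes, which are about as short, the mean was 34.5% ± 0.345, and for snoRNA genes it was 55.6% ± 3.53. MicroRNA genes were lower than both classes in all 3 replicates, with a difference of −9.10 ± 1.30 percentage points from tRNA genes (34.8% in the optimal list) and of −30.3 ± 2.61 from snoRNA genes (49.8%). These differences exceeded their spread between replicates. The spread measures only the agreement of the 3 lists, since the genes of a class share clusters and host genes.

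**Figure D1:**
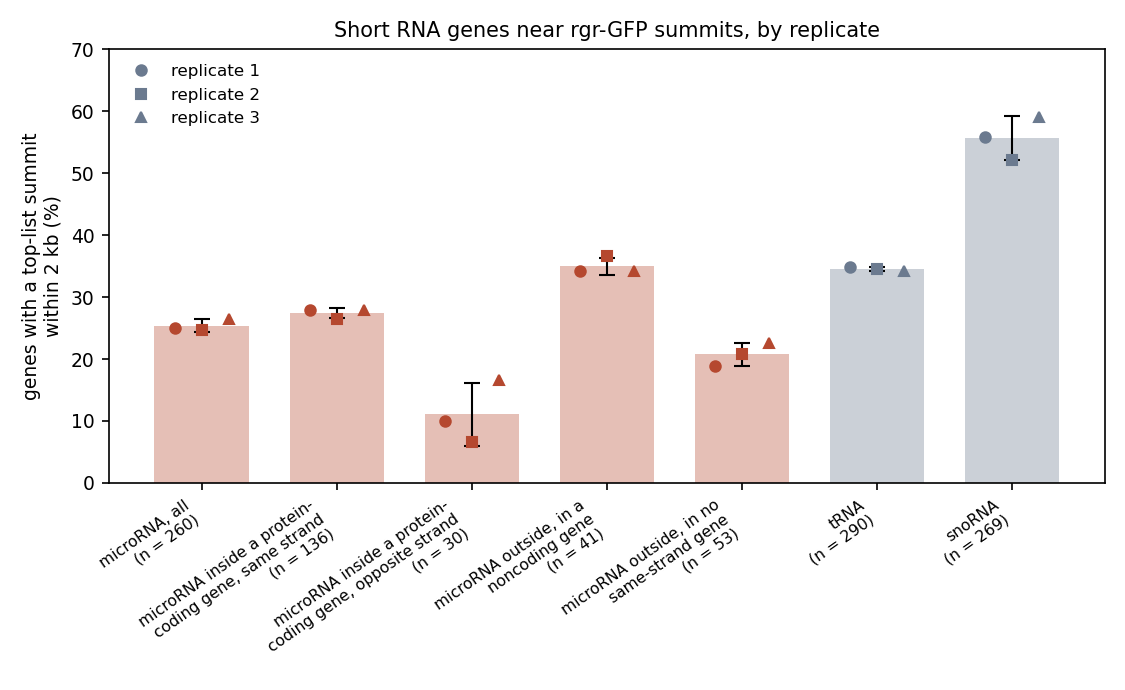
Percentage of genes with a summit within 2 kb among the 8551 strongest entries of each replicate list, for microRNA genes by position and for tRNA and snoRNA genes. Points are the 3 replicates, bars their mean, error bars 1 SD, and n the number of genes. The bar for all microRNA genes stands at 25.4%, that for tRNA genes at 34.5% and that for snoRNA genes at 55.6%.

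Of the 60 members, 38 had 1 summit within 2 kb, 15 had 2 and 7 had 3 or more, up to 5 at mir-282. Together they had 75 distinct summits with a median rank of 5088 of 8551, and 8 of the summits ranked among the 1000 strongest. A summit within 100 bp was present in all 3 replicate lists for 62 of the 75, and among the 8551 strongest entries of all 3 for 43. The same shares over all optimal summits are not given here, so these counts are not read as high or low. Of the 260 members, 56 had a top entry within 2 kb in every replicate, 22 in 1 or 2 replicates, and 182 in none. Over all annotated genes, 44.9%, 43.5% and 44.0% had a top entry within 2 kb in replicates 1, 2 and 3. At the other end, 102 members lay over 10 kb from any optimal summit. The median distance was 6450 bp for members, 4419.5 bp for tRNA genes, 2028 bp for snoRNA genes and 3288 bp for all annotated genes. How many genes of other classes had a top entry in every replicate, or lay over 10 kb away, is not given here. In the relaxed pooled list, which also holds background entries, 117 members (45.0%) had an entry within 2 kb, against 62.5% of all annotated genes.

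By arm, a summit was near 17 of 58 members on 3R (29.3%), 14 of 55 on 2R (25.5%), 12 of 56 on 2L (21.4%), 9 of 58 on X (15.5%), 8 of 31 on 3L (25.8%) and neither of the 2 on chromosome 4. Over all annotated genes the shares were 43.9% on 3R, 43.5% on 2R, 39.1% on 2L, 44.6% on X and 45.9% on 3L. Of the bases of these arms, 17.9% (2R) to 19.4% (3L) lay within 2 kb of a summit, with 19.0% on X. The members' share was below that of all genes on each of these arms, and on X it was also below that of the bases; the arms were not tested against each other.

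The strongest summit near any microRNA lay at the start of the primary transcript of mir-279 and mir-996. These neighbours are known to shape sensory neurons, where mir-279 prevents the formation of misplaced carbon dioxide sensing neurons. The summit at chr3R:29214439 had a signal of 3225 and rank 15 in the pooled list. Its ranks were 24, 10 and 15 in replicates 1, 2 and 3. It stood 123 bp before the annotated start of lncRNA:CR31044, which RefSeq also names pri-mir-279_mir-996, and 1146 bp upstream of the mir-279 precursor (chr3R:29215585-29215684). A weaker summit (signal 173, rank 5898) lay 298 bp upstream of mir-279 and 1897 bp upstream of mir-996, with replicate ranks of 8082, 4252 and 14269, so it was outside the top entries in replicate 3. Another, at 920 (rank 416), lay beyond the end of the transcript, 5573 bp from its start. The protein-coding start nearest to the strongest summit, that of eEF1gamma, lay 5733 bp from that summit. Whether the summit of 920 belongs to eEF1gamma was not determined.

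The next loci were lower in signal. The second locus, mir-9377, lies in an intron of Tis11, which encodes a zinc finger protein that binds messenger RNAs and speeds their decay. It had summits of 868 and 808 downstream of the precursor, at ranks 478 and 553. The replicate ranks of the first were 469, 420 and 741. Unlike the mir-279 summit, these lay far from an annotated start, 6073 and 5082 bp from that of Tis11.

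The third locus holds mir-275 and mir-305, of which mir-305 is known to act in intestinal stem cells. Its strongest summit (735, rank 668) was 435 bp upstream of mir-275 and 612 bp upstream of mir-305. It ranked 599, 674 and 631 in the replicates. Another summit of 392 stood 164 bp before the start of lncRNA:CR43857, whose transcript spans mir-275 and ends before mir-305. That summit ranked 1612, 1833 and 8800, so replicate 3 placed it outside its top entries.

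The fourth locus holds mir-92a and mir-92b inside jigr1, which encodes a DNA-binding protein, and mir-92a is known to act in neural stem cells. The summit of 684 (rank 756) was 476 bp downstream of mir-92a and 170 bp from a start of jigr1. It ranked 792, 818 and 702. A summit of 240 lay 163 bp downstream of mir-92b and ranked 3902, 4993 and 3535.

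At mir-ban, the growth-promoting microRNA bantam, the summit of 677 (rank 772) lay 1442 bp upstream of the precursor at chr3L:642208-642288. It ranked 1064, 675 and 688. The bantam primary transcript, lncRNA:CR43334, is 15466 bp long, and this summit lay well inside it, 12331 bp from its 5′ end. At that 5′ end stood a weaker summit (173, rank 5877), with ranks of 6618, 6429 and 12764.

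At mir-8, the fly relative of the miR-200 family and a regulator of fat body growth and insulin signalling, the summit of 642 (rank 862) was 925 bp upstream of the precursor. It lay 182 bp from an internal start of lncRNA:CR43650, the mir-8 primary transcript, and ranked 1078, 789 and 841. A stronger summit (944, rank 391), at ranks 467, 413 and 303, stood 682 bp before the 5′ end of the gene and beyond 2 kb of the precursor.

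The other 6 of the 12 leading loci had signals from 424 to 668. At mir-4981 the summit (668, rank 794) was 841 bp upstream of the precursor and 653 bp from a start of CG14762, and it ranked 873, 843 and 734. The next was mir-2493 in an intron of CG42788 (498, rank 1342), with the summit 1038 bp upstream and 29 bp from the start of its host, and replicate ranks of 1325, 1551 and 1511. The gene mir-308 lies in an intron of RpS23, which encodes a ribosomal protein. Its summit of 452 stood 6 bp from the start of that host and 720 bp upstream of the precursor, at ranks 1780, 2010 and 923.

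The gene mir-967 lies in an intron of bun, which encodes a TSC22 family growth regulator. Its summit of 488 was 1373 bp upstream and 217 bp from a start of bun, and ranked 2743, 1307 and 806, the widest spread in rank of the 12 loci. A stronger summit of 1141 (rank 237, replicate ranks 359, 230 and 182) stood at another start of bun, 23489 bp before the precursor. The gene mir-375 (434, rank 1679), whose mammalian relative acts in pancreatic islets, had its summit 1356 bp upstream, at ranks 2346, 1414 and 1747. At mir-4962, in an intron of the kinase gene Tlk, the summit of 424 within the precursor ranked 2479, 1713 and 1098.

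**Figure D2:**
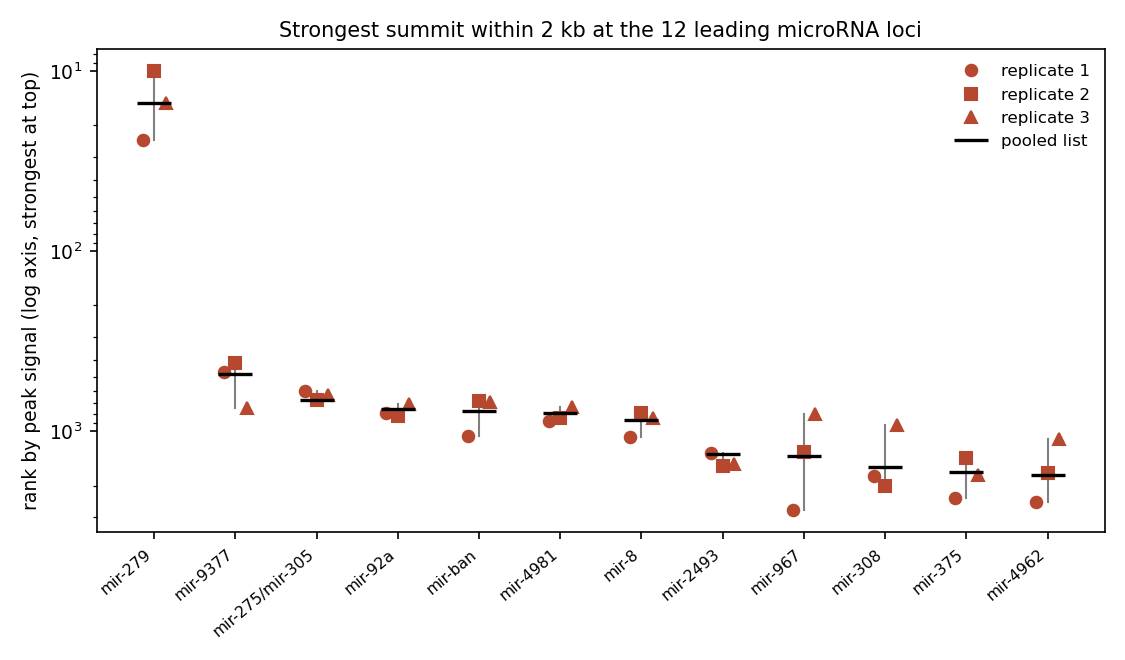
Rank by peak signal, on a log axis with the strongest at the top, of the strongest summit within 2 kb at the 12 leading microRNA loci, named by the precursors that have it within 2 kb. Points are the 3 replicates, grey lines their range and black dashes the pooled rank. The mir-279 summit stands at ranks 10 to 24, and the mir-967 summit spreads from 806 to 2743.

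Only 9 members (3.46%) had a summit within 200 bp, against 27.1% of all annotated genes. The shares for tRNA genes (3.79%) and snoRNA genes (4.46%) were close to that of the microRNA genes. Summits fell within the precursor itself at mir-4962 (424), mir-11182 (199), mir-998 (193) and mir-4974 (172). Of these, the mir-4974 summit was missing from replicate 3. The summit within mir-11182 was 32 bp from a start of the protein-coding gene CG5726, and that within mir-998 lay 2641 bp from the nearest start. The other members were mir-92b, mir-2491, mir-14, mir-282 and mir-958, with the nearest summit 113 to 163 bp away.

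Summits lay upstream of the precursor in 58 of the 91 pairs of member and summit, downstream in 29 and within it in 4. For members outside protein-coding genes the counts were 30 upstream, 12 downstream and 1 within, and for members inside them 28, 17 and 3. The upstream share over all microRNA pairs was 63.7%, against 55.8% for tRNA genes and 81.0% for snoRNA genes. Outside protein-coding genes it was 69.8% for microRNA and 52.9% for tRNA pairs, and inside them 58.3% for microRNA and 82.7% for snoRNA pairs. Taking only the strongest summit of each locus, it was upstream at 15 of 17 loci of members outside protein-coding genes and at 19 of 30 of members inside. Such counts by locus were not made for tRNA or snoRNA genes. Some clustered members share a summit, so the pairs are not independent. Of the 75 distinct summits, 35 lay within 500 bp of an annotated transcript start other than that of a precursor, nearest to a protein-coding start in 24 and to a noncoding one in 11. The same share over all optimal summits is not given here, so this count is a description only.

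**Figure D3:**
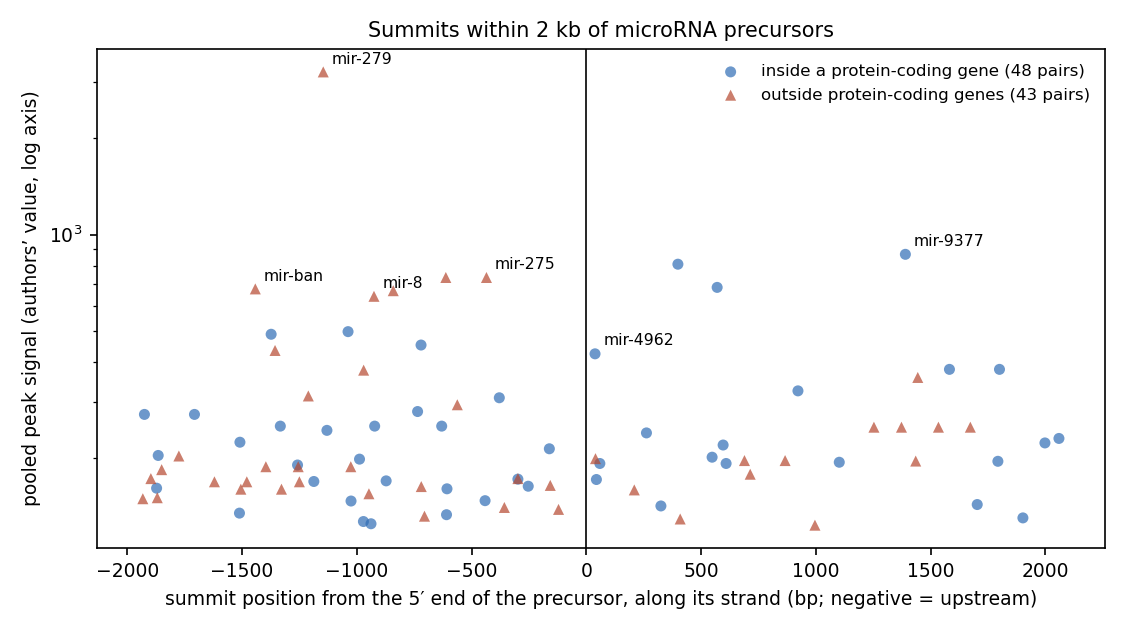
Position of each optimal summit along the strand of the precursor, in bp from its 5′ end, against the pooled peak signal on a log axis. Each of the 91 points is 1 pair of member and summit, and a summit shared by clustered precursors appears once for each. Most points of members outside protein-coding genes lie left of 0, and the mir-279 summit stands alone at 3225.

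Inside protein-coding genes lay 166 members, 136 on the strand of the host and 30 on the other strand, 122 in introns and 44 overlapping an exon of a transcript. A summit was within 2 kb of 35 of them (21.1%) and of 25 of the 94 members outside (26.6%). The difference, inside minus outside, was −0.833, −4.77 and −1.76 percentage points in replicates 1, 2 and 3, a mean of −2.45 ± 2.06 (SD, n = 3). Its sign was the same in the 3 replicates but turned with the distance: it was 3.05 at 1 kb and 1.20 at 5 kb. Of the bases of the arms, 20.8% inside protein-coding genes and 12.5% outside them lay within 2 kb of a summit.

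Members inside genes were also counted by strand. On the host's strand, 33 of 136 members (24.3%) had a summit, and on the other strand 2 of 30 (6.67%), namely mir-4957 in Top1 and mir-4978 in mam. The exact 95% binomial intervals, 17.3 to 32.4% and 0.818 to 22.1%, overlap. They take members as independent, although the 30 lie at 21 loci, 6 of them in DIP-theta, so clustered members weigh on the share. By locus the counts were 28 of 124 (22.6%) and 2 of 21 (9.52%). In the replicates the means were 27.5% ± 0.849 and 11.1% ± 5.09, a difference of 16.3 ± 4.48 percentage points. Outside protein-coding genes, 15 of 41 members within a noncoding gene on their strand (36.6%) and 10 of 53 without one (18.9%) had a summit. Their intervals, 22.1 to 53.1% and 9.44 to 32.0%, overlap as well. That difference was 14.2 ± 2.35 points in the replicates.

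A primary transcript can start far from its hairpin, so the annotated starts of all same-strand transcripts that span a precursor were also examined. A summit lay within 500 bp of such a start for 84 of the 260 members, at 69 genes, and 48 of these members had no summit within 2 kb of the precursor. The median distance from the start to the precursor was 7718.5 bp, and the longest was 159049 bp. Hosts were counted by any of their annotated starts, whether or not that transcript spans the precursor. Of the 124 protein-coding hosts, 59 (47.6%) had a summit at a start, against 29.0% of all protein-coding genes. Of 28 noncoding hosts of members outside protein-coding genes, 13 (46.4%) had one, against 13.3% of all noncoding genes other than microRNA genes.

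Hosts are long, with a median of 13462 bp for protein-coding hosts against 2164.5 bp for all protein-coding genes. Long protein-coding genes more often had a summit at a start. Among protein-coding genes under 5 kb the share was 31.7% for hosts and 25.1% for other genes. From 5 to 20 kb it was 51.4% and 39.5%, and from 20 kb up 58.7% and 41.9%. Among noncoding genes of 5 to 20 kb it was 53.3% for 15 hosts and 17.3% for 75 others. Under 5 kb it was 30.0% for 10 hosts and 12.8% for 2422 others. From 20 kb up it was 66.7% for only 3 hosts and 13.0% for 23 others. The share of the other noncoding genes thus did not rise steadily with length. The split by length was chosen after the first values were seen, and the part of gene length in the remaining difference was not tested.

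**Figure D4:**
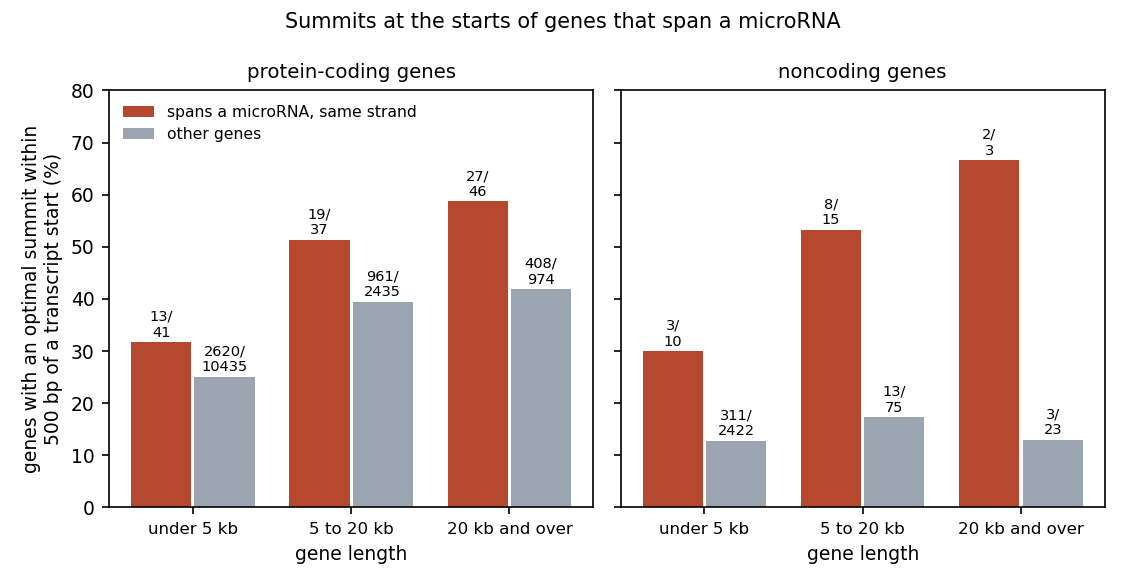
Percentage of genes with an optimal summit within 500 bp of an annotated transcript start, by gene length, for genes that span a microRNA on the same strand and for other genes. Left, protein-coding genes, and right, noncoding genes; numbers on the bars are genes with such a summit over all genes. Hosts stand above other genes of the same length class in both panels, at 58.7% against 41.9% in the longest protein-coding class. The longest noncoding class holds only 3 hosts.

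Several primary transcripts of microRNAs outside protein-coding genes had a summit near a start. Besides those of mir-279 and mir-8, the start of the mir-14 transcript, lncRNA:CR43651, had a summit of 377 at 52 bp (rank 2048, replicate ranks 2173, 2324 and 1912). The gene mir-14 is known to limit cell death and fat storage and to act in ecdysone signalling. A start of the mir-276a transcript, lncRNA:CR46006, had a summit of 313 at 2 bp (ranks 2554, 3152 and 1744). The strongest summit over that transcript was 854, at 5382 bp from its 5′ end, at the far end from the precursor.

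The let-7 complex was weaker and less regular. Its transcript, lncRNA:let7C, carries mir-100, mir-let7 and mir-125, which rise at metamorphosis and drive the change of larval to adult neuromuscular tissue. None of the 3 had a summit within 2 kb. A summit of 181 lay 162 bp from the start, 15717 to 16598 bp before the precursors. It ranked 14497 in replicate 1 and 2820 in replicate 3 and was missing in replicate 2, so the replicates differed on it. A stronger summit of 352 within the transcript, 8049 bp from its 5′ end, ranked 2624, 2245 and 2213.

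At mir-282 stronger summits stood beyond 2 kb of the precursor. Its 5 summits within 2 kb reached only 163, whereas summits of 1305, 1514 and 2407 stood 331, 533 and 1604 bp before the start of lncRNA:CR43626, which spans it. The last ranked 32, 40 and 41 in the replicates, and the first 3113, 291 and 2329. The protein-coding start nearest to the summit of 1305, that of CG43389, lay 994 bp from it. Which gene these 3 summits belong to was not determined. Summits also stood before the gene at the mir-9a transcript, lncRNA:CR45916, though none within 500 bp of a start. The microRNA mir-9a, which is known to secure the number of sensory organs, had no summit within 2 kb, but a summit of 1579 (ranks 117, 92 and 214) stood 1816 bp before the 5′ end of that gene. Weaker summits of 569, missing in replicate 3, and 386 stood nearer, at 779 and 580 bp. Whether these summits belong to another gene was not determined.

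Other starts beyond 2 kb belong to microRNAs of known function. A summit of 223 stood 23 bp from the start of lncRNA:CR43314, the transcript of mir-bft, whose precursor lies 17591 bp further. It ranked 4369, 4690 and 3892. An internal start of lncRNA:CR44206, the mir-184 transcript, had a summit of 148, at 7434 bp from the 5′ end of the gene. It ranked 4462, 7359 and 13272, so it was not among the 8551 strongest entries of replicate 3. A stronger summit of 488 (ranks 1417, 1285 and 1299) lay within the same gene, 6398 bp from its 5′ end. The start of lncRNA:Hsromega, the heat shock induced noncoding RNA that spans mir-4951, had one of 673 with ranks of 939, 790 and 854. Among protein-coding hosts, spi, which encodes an EGF receptor ligand and holds mir-2a-1, mir-2a-2 and mir-2b-2, had a summit of 743 at 157 bp (ranks 698, 677 and 608).

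Other protein-coding hosts with a summit at a start mostly hold precursors that had none within 2 kb. A start of CG5953, 4386 bp before mir-4943, had a summit of 1203 (rank 216), and one of PAPLA1, 17913 bp before mir-4984, had one of 1057 (rank 298). Both were among the top entries of every replicate, at ranks 264, 220 and 281 and at ranks 291, 317 and 340. Hosts of several precursors included grp, the fly Chk1 kinase gene, whose cluster of mir-306, mir-79, mir-9b and mir-9c lies 12534 to 13354 bp from a start with a summit of 218 that was missing in replicate 3. A start of Gmap, before mir-283, mir-304 and mir-12, had a summit of 200 (ranks 6414, 4880 and 3638), and of these mir-12 alone also had a summit within 2 kb. A start of CASK, which encodes a synaptic scaffold protein, had one of 152 (ranks 5115, 9379 and 6821, outside the top entries of replicate 2), with mir-999 and mir-4969 lying 24003 to 24343 bp further.

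**Figure D5:**
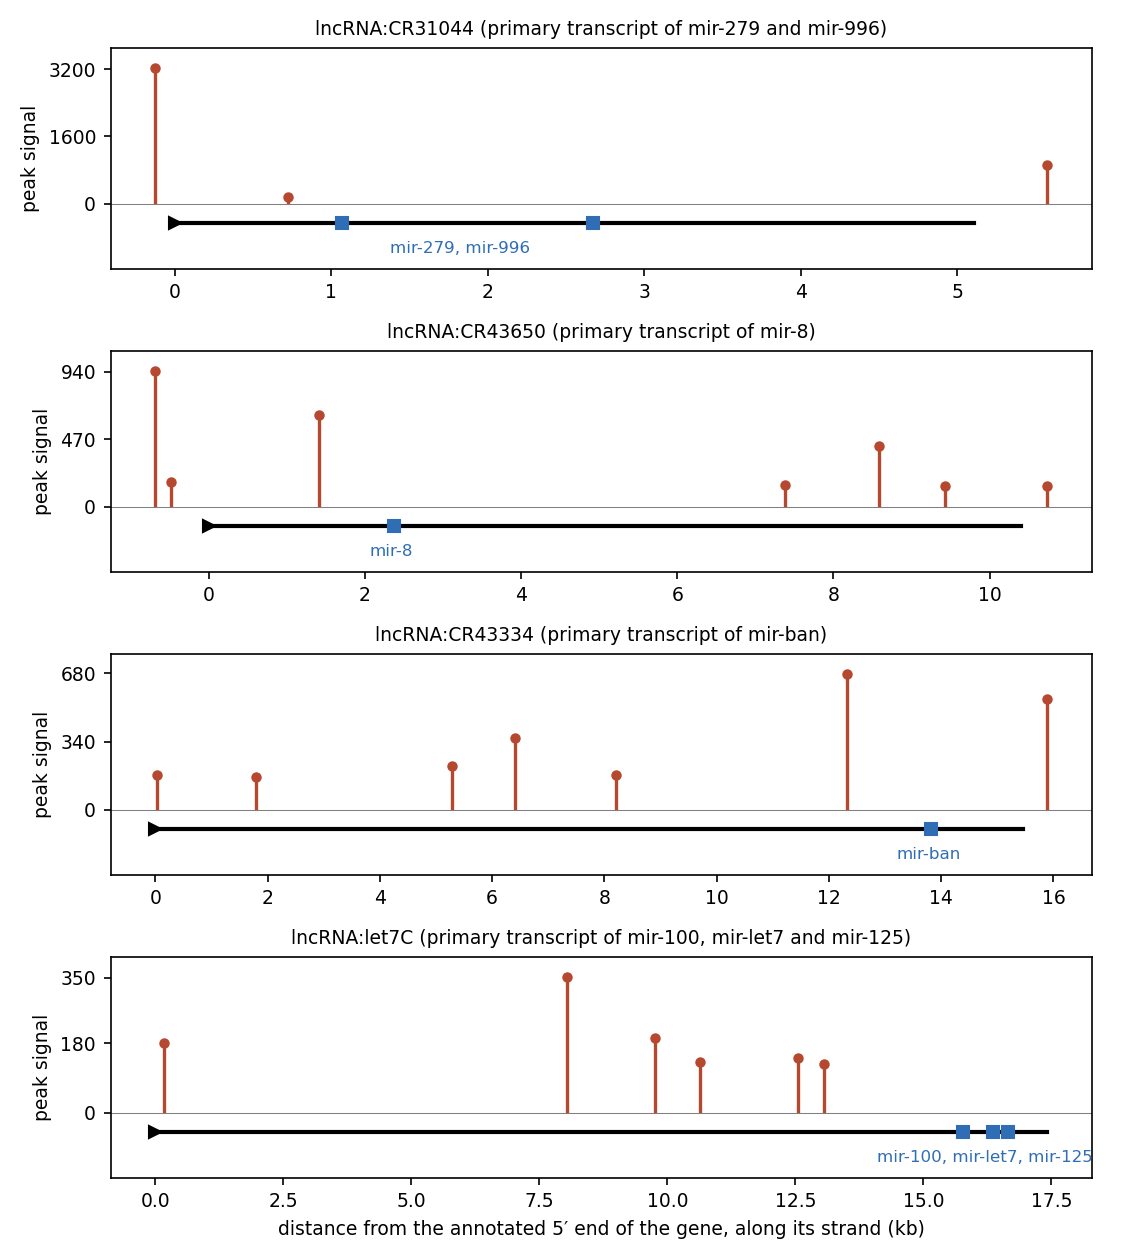
Optimal summits along 4 noncoding primary transcripts of microRNAs, by distance in kb from the annotated 5′ end of the gene. Red stems give the pooled peak signal, black bars the gene with an arrow at its 5′ end, and blue squares the precursors. The signal axes differ: the mir-279 transcript has its strongest summit (3225) at its start, whereas the mir-ban transcript (677) and the let-7 transcript (352) have theirs inside.

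By seed, the 260 members carry 481 mature products with 426 seeds, of which 33 are shared by over 1 member. A summit was within 2 kb of 25 of the 73 members that share a seed (34.2%) and of 35 of the 187 with seeds of their own (18.7%). Members of a family often lie in 1 cluster, so these shares count some summits several times. All 6 members with the seed AUUGCAC had a summit: mir-92a and mir-92b, in jigr1, and mir-310, mir-311, mir-312 and mir-313, which share 1 summit of 250. With the seed AUCACAG, 8 of 14 members did. With GACUAGA, mir-279 and mir-996 had one and mir-286, of the early embryo cluster, did not.

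The family with the seed AUCACAG is known to repress the cell death genes reaper, hid and grim. Together with mir-14, mir-278, mir-8, mir-9a and mir-7 its members mir-2, mir-11 and mir-13 made a list of 14, of which 9 (64.3%), at 5 of 10 loci, had a summit within 2 kb, beside 23.1% of all members. The cluster in spi had a summit of 252 between 630 and 1333 bp upstream of its 3 precursors. It ranked 3494, 4234 and 3675. The cluster of mir-2c, mir-13a and mir-13b-1 had summits of 188 and 169, of which the first was missing in replicate 3. The gene mir-11 lies in E2f1, a cell cycle regulator, beside mir-998, and both had the summit of 193 within mir-998. The single genes mir-2b-1 and mir-13b-2 lay 12414 and 8432 bp from the nearest summit.

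Of 8 members known for metabolism, 6 had a summit (75.0%), at 5 of 7 loci, beside 23.1% of all members. They were mir-275 and mir-305 (735), mir-8 (642), mir-375 (434), mir-14 (377) and mir-277, a regulator of amino acid breakdown, whose summit of 184 was 1850 bp upstream and ranked 5961, 5744 and 6260. The lists overlap: mir-8 and mir-14 are also in the list above and in the timing list below, and mir-278 is also in the list above. Neither mir-278 nor mir-33 had one. Both lie in protein-coding hosts with a summit at a start, of 237 at CG42524 for mir-278 and of 152 for mir-33 at SREBP, which encodes a regulator of lipid synthesis. The first ranked 5324, 4875 and 2071. The second ranked 14481 in replicate 1 and 5126 in replicate 2 and was missing in replicate 3, so it was among the top entries of replicate 2 alone. It lay nearer, at 4 bp, to the start of CG42637 than to that of SREBP, at 362 bp.

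Of 6 members known for larval timing and ecdysone response, mir-8, mir-14 and mir-252 had a summit and mir-34, mir-100 and mir-125 did not. The list left out let-7, which is also known for timing. With mir-let7, 3249 bp from the nearest summit and added after its value was seen, the count was 3 of 7. The mir-252 summit of 203 was 20 bp from a start of asRNA:CR17025, which RefSeq also names pri-mir-252, and ranked 5047, 4758 and 5615. The precursor of mir-34 lay 2764 bp from a summit, the same one that lay within 2 kb of its cluster mate mir-277.

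Of 15 members known from muscle and nerve, 5 had a summit (33.3%), at 3 of 13 loci: mir-279 and mir-996, mir-92a and mir-92b, and mir-276a. The muscle microRNAs mir-1 and mir-133 lay 7212 and 28840 bp from the nearest summit, and the neuronal mir-124 lay 16687 bp away. The sensory organ microRNA mir-bft and mir-190, in rhea, had none within 2 kb but one at the start of a spanning transcript.

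None of the 8 members of the early embryo cluster, which clears maternal messenger RNAs, had a summit, and their median distance to one was 13470.5 bp. The 24 members of clusters known from the testis had 4 with a summit, mir-310 to mir-313, all at 1 of 4 loci. That summit, at 250, lay downstream of the precursors and 455 bp from a start of the protein-coding gene qsm. The median distance of the testis list was 37774.5 bp, the largest of the 6 lists. For the early embryo and testis lists each locus counts once, so 0 of 1 and 1 of 4 loci had a summit.

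The 75 member summits held few of the words searched within 50 bp of the summit on both strands. TATCGATA, the DNA replication-related element, was in none of them and in 1.88% of all 8551 optimal summits. GGTCACAC, the core of the Motif 1 binding protein site, was in 4 (5.33%), near mir-275 and mir-305 (1 shared summit), mir-308, mir-4957 and mir-4974, and in 128 of all 8551. TATAAA was in 10 (13.3%, against 19.0%) and TAATTA, a homeodomain core, in 3 (4.00%, against 8.53%). CACGTG was in 2 (2.67%, against 0.795%), GAGAGAG in 1 (1.33%, against 1.72%) and TGCATACTT, from the Su(Hw) site, in none (against 0.398%). The mir-279 window shown above held none of the words. The mean AT content of the member windows was 60.3% ± 9.19 (SD, n = 75), against 63.8% ± 9.86 over all summits.

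Of the 14 proteins of the microRNA and related small RNA pathways examined, 4 (28.6%) had a summit within 500 bp of a transcript start, about the 29.0% of all protein-coding genes. They were gw, the GW182 protein that carries out silencing (575, ranks 1171, 1054 and 936), r2d2, the partner of Dicer-2 in RNA interference (522), AGO1, the microRNA Argonaute (505), and Nbr, an exonuclease that trims microRNA 3′ ends (182). The processing genes drosha, pasha, Dcr-1 and loqs had none.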

How the data were processed

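Peak lists of 3 biological replicates of rgr-GFP chromatin immunoprecipitation, deposited on dm6, were used, with the pooled and optimal lists. Per the file listing, each list was called against a control alignment. Which aligner and peak caller were used, and at which threshold, is not given in the sources used here. The values are the authors' deposited peak signal, whose scaling between lists is not stated, so it was used to rank and describe peaks within a list. The dm3 lists were left aside, and 0 columns of per-sample values remained unmapped.

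Coordinates are 1-based. Genes came from Ensembl release 115 (BDGP6.54, the dm6 assembly), without the 485 mature products that it files as genes, and synonyms, mature products and sequence from RefSeq. A precursor was inside a protein-coding gene if the gene spanned it on either strand. Distances ran from the annotated precursor to the summit. Replicate lists were cut to their 8551 strongest entries, and summits matched within 100 bp. The genes named are those with a summit within 200 bp, those of the 12 loci with the highest signal, those of the functional lists, let-7 and bantam, and the pathway genes with a summit at a start; genes named for the start of a spanning transcript, mir-4957, mir-4978, mir-184, mir-4951 and mir-282 among them, were chosen after their values were seen. The members and lists were chosen with earlier results of these data known. Alternatives were other distances, the stronger peaks, the relaxed list, peak intervals, counts by locus and genes with a precursor transcript. Each replicate was also set aside: counts kept optimal summits matched in both others, and replicate means left it out. The functions were tested on simulated data. Values were computed in Python 3.11.15 with pandas 2.3.3, numpy 2.4.6 and scipy 1.17.1, and drawn with matplotlib 3.10.9.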

Additional observations from a re-analysis of the deposited data

How the results depend on the processing

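Of 47 recomputed values, 26 stayed within 1.5 times the reported count, or within 1 SD for the replicate shares, and 21 did not. Some of the 26 could not have moved. Leaving out 1 of 3 replicates cannot shift their mean by 1 SD. Another setting required a precursor transcript, which all members have. The count of 60 members with a summit (35 inside protein-coding genes, 25 outside) was 20 (13 and 7) within 500 bp, 34 (23 and 11) within 1 kb and 111 (68 and 43) within 5 kb. It was 31 (16 and 15) with the stronger optimal peaks, down to the middle rank of the list, and 117 (70 and 47) with all relaxed pooled entries. Peak intervals gave 61, 1 count per locus 47 (30 and 17), and a host on the precursor's strand alone 33 inside and 27 outside. With each replicate set aside in turn, optimal summits were kept only if both others had a top entry within 100 bp. This gave 47 to 51 in all, 26 to 30 inside and 21 to 22 outside. The optimal list was still that of all 3 replicates, so this filter could only lower the counts. The mean replicate share of 25.4% was 14.4% at 1 kb, 46.2% at 5 kb, 12.3% with replicate lists cut at that rank, and 24.8 to 25.8% without 1 replicate. The difference inside minus outside of −2.45 percentage points was 3.05 at 1 kb, 1.20 at 5 kb, −5.16 with those shorter lists, and −3.26 to −1.29 without 1 replicate. The cause was not tested. No paired analysis was possible because there is 1 group. Depth is unknown, so a precursor without a summit is one where none was listed.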
